A study of Mus musculus with 8 samples.

Results

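The growth hormone, STAT5 and IGF1 axis was followed here through 10 genes in mouse liver. They are the receptor Ghr, its kinase Jak2, the transcription factors Stat5a and Stat5b, the feedback inhibitors Socs2 and Cish, the nuclear factors Bcl6 and Cux2, and the secreted products Igf1 and Igfals. The genes were chosen by name, and each was read from the brightest probe set annotated to that gene alone. All 10 were measured, out of 22180 genes on the array, and all 10 lay at or above the median gene level.

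Growth hormone binds its receptor on hepatocytes and activates JAK2, which phosphorylates STAT5. STAT5 then enters the nucleus and binds DNA. Its liver targets include the feedback inhibitors SOCS2 and CISH, IGF1, and the acid-labile subunit encoded by Igfals, which holds IGF1 in a ternary complex in blood. Bcl6 is a repressor gene that STAT5 turns down. In rodents growth hormone reaches the liver in pulses in males and more continuously in females, and this pattern sets the sex-biased expression of many liver genes.

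Total liver RNA of 8 mice was hybridised to single-colour Affymetrix Mouse Gene 2.0 arrays, 4 arrays per group. The knockout group (NCOR_KO) had received an adeno-associated virus expressing Cre through a vein, and the control group (WT) the same kind of virus expressing GFP. All were 3-month-old mice on normal chow under a regular light cycle, and livers were taken 2 weeks after injection at 5 pm, ZT10. The design text gives NCOR floxed mice for both viruses while the labels call the controls wild-type, so the allele of the controls is unclear, and loss of NCOR cannot be told apart from any effect of Cre. NCOR is a corepressor that works with the deacetylase HDAC3. The promoter that drives Cre is not given in the sources used here. The labels call the replicates biological but name no animals. P-values therefore reflect the spread among these arrays, part of which may be technical.

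The targeted gene was not analysed here, so the labels were not checked against it. The hepatocyte marker Alb lay between 13.47 and 13.56 in log2 intensity on all 8 arrays. The Y-linked gene Eif2s3y lay between 9.04 and 9.24 and Uty between 8.99 and 9.24, with overlapping groups, while Xist lay between 4.01 and 4.56. Across all genes 366 (1.65%) passed limma's threshold, an adjusted p below 0.05. They comprised 181 risers (0.816%) and 185 fallers (0.834%); with each array centred on its median 145 rose and 295 fell. The number of arrays limits the precision of every value. WT replicate 2 and NCOR_KO replicate 1 were the lowest or highest of their groups for Socs2, Cish, Bcl6 and Igfals. Over all genes WT replicate 2 departed most from its group mean (root mean square 0.157) and had the lowest limma array weight, 0.538. NCOR_KO replicate 1 was next, at 0.137 and 0.807, but not far from NCOR_KO replicate 4, at 0.128 and 0.886. The group differences of Socs2, Cish, Bcl6 and Igfals are given with and without WT replicate 2 and NCOR_KO replicate 1.

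Of the 10 axis genes 1 rose in knockout liver, Stat5a, 0 fell and 9 did not pass (limma, adjusted over 22180 genes), where 1.65% of all genes passed. At an unadjusted p under 0.05 there were 5 of 10, against 15.9% of all genes. The values of 4 of the 10 did not overlap between groups, Stat5a, Stat5b and Cux2 above and Ghr below the controls. Of all genes 10.4% did not overlap, 4.9% lying above and 5.49% below. The median difference over the 10 genes was -0.01 on the log2 scale, and over all genes 0.0063.

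**Figure D1:**
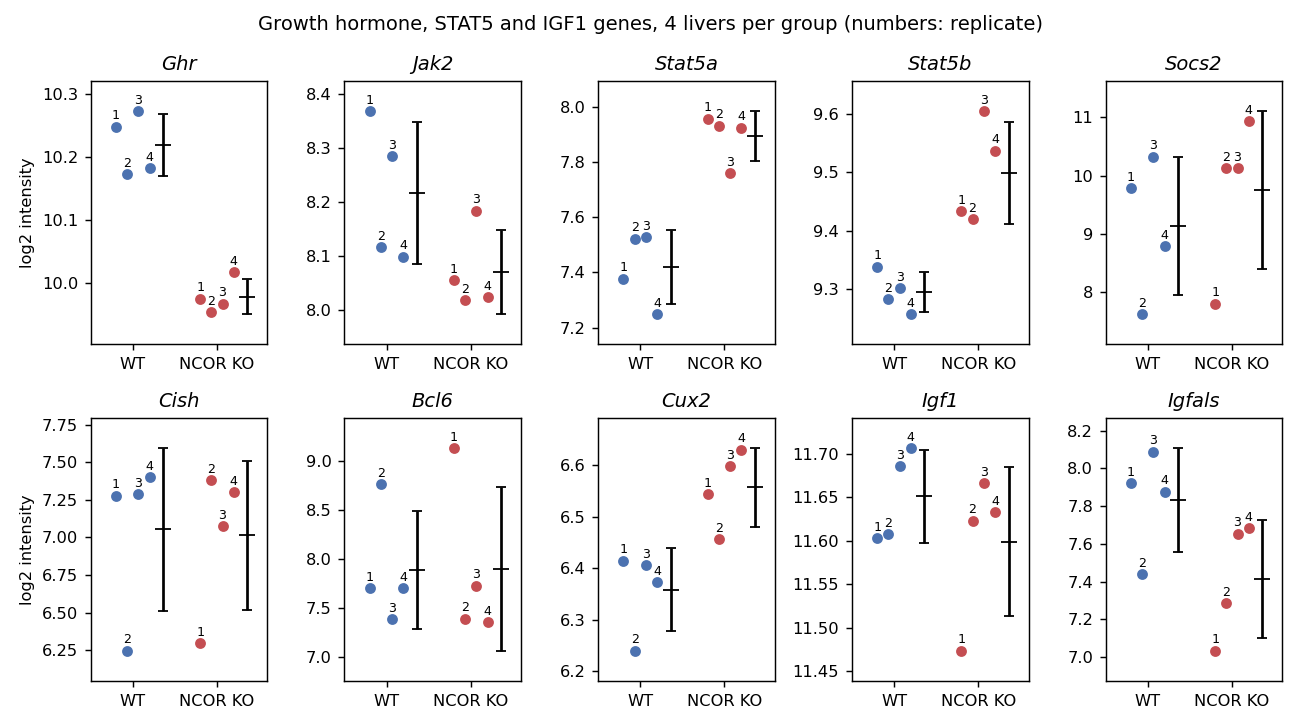
Log2 intensity (y axis) of each of the 10 axis genes on every array, WT in blue and NCOR KO in red, with replicate numbers beside the points and bars for the group mean ± SD (n = 4). Ghr, Stat5a, Stat5b and Cux2 show no overlap between groups, while Socs2, Cish and Bcl6 are spread by WT replicate 2 and NCOR KO replicate 1.

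Ghr encodes the growth hormone receptor. Its log2 intensity was 10.25, 10.17, 10.27 and 10.18 in WT replicates 1 to 4, and 9.97, 9.95, 9.97 and 10.02 in NCOR_KO replicates 1 to 4. Every knockout value lay under every control value, in groups with little spread. The within-group SD of Ghr, 0.039, was larger than that of only 1.99% of genes. Group means were 10.22 ± 0.05 and 9.98 ± 0.03 (SD, n = 4), a difference of -0.24 ± 0.05 (SE), or 1.18-fold. The limma adjusted p was 0.0587, which missed the threshold. It was under the threshold with a trend and robust variance (adjusted p = 0.0258), with array weights (0.0385), among genes at or above the median level (0.0296) and with each array centred on its median (0.0481). Without single arrays it ran from 0.0708 to 0.162.

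Jak2, the tyrosine kinase bound to that receptor, read 8.37, 8.12, 8.28 and 8.10 in control and 8.06, 8.02, 8.18 and 8.02 in knockout liver. The groups overlapped at NCOR_KO replicate 3. The difference was -0.15 ± 0.08 (SE; limma adjusted p = 0.382), with a 95% interval from -0.32 to 0.02.

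Stat5a and Stat5b are neighbouring genes that encode closely related STAT5 proteins, of which STAT5B is the main form in liver. Stat5a read 7.38, 7.52, 7.53 and 7.25 in WT replicates 1 to 4 and 7.96, 7.93, 7.76 and 7.92 in NCOR_KO replicates 1 to 4. All knockout values were above all control values, and NCOR_KO replicate 3 was the lowest of its group. Stat5a rose from 7.42 ± 0.13 to 7.89 ± 0.09 (SD, n = 4), by 0.47 ± 0.08 (SE), or 1.39-fold, with a limma adjusted p of 0.0179. That call was lost without WT replicate 1 (adjusted p = 0.0564), NCOR_KO replicate 1 (0.0572) or NCOR_KO replicate 2 (0.0753), at log2 changes of 0.46, 0.45 and 0.46. Without WT replicate 2 and NCOR_KO replicate 1 together the change was 0.49 (adjusted p = 0.0483).

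Stat5b read 9.34, 9.28, 9.30 and 9.26 in control and 9.43, 9.42, 9.61 and 9.54 in knockout liver. The groups did not overlap, and NCOR_KO replicate 3, the lowest of its group for Stat5a, was the highest for Stat5b. The difference was 0.20 ± 0.06 (SE; 95% interval 0.07 to 0.34), with a limma adjusted p of 0.138. The change in the per-array log2 difference of Stat5a minus Stat5b, which does not depend on how arrays are scaled, was 0.27 (exact two-sided permutation p = 0.0857 over 70 assignments, 0.229 after Benjamini-Hochberg adjustment over 4 such differences). The smallest two-sided p of this test is 0.0286 before adjustment, so a single difference alone cannot pass after it. A larger change of Stat5a than of Stat5b was thus neither shown nor excluded. Probe sets of near-identical paralogs can share signal, so single values of this pair are uncertain.

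**Figure D2:**
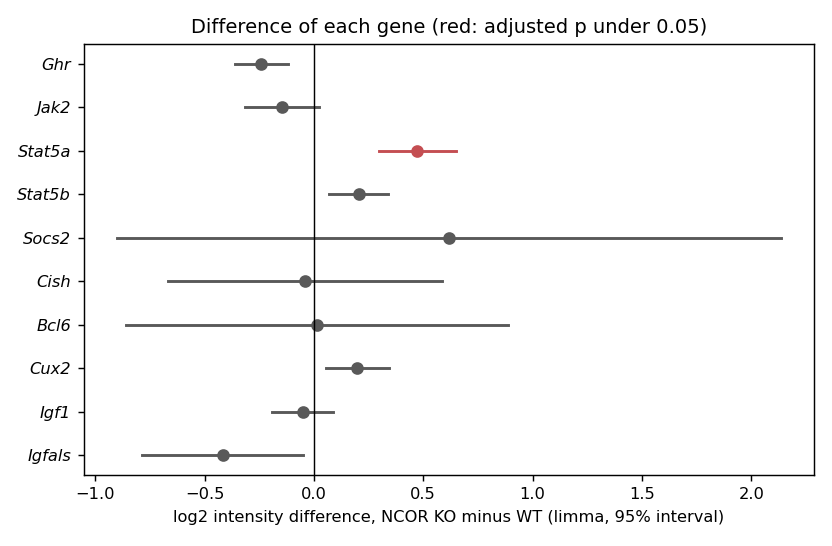
Difference in log2 intensity, NCOR KO minus WT (x axis), for each of the 10 axis genes (y axis), with the 95% interval of the limma fit over 4 arrays per group; red marks an adjusted p under 0.05. Stat5a at 0.47 is the gene in red, and the intervals of Socs2, Bcl6 and Cish are the widest.

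Socs2 encodes a SOCS-box protein that damps growth hormone receptor signalling, and it is among the transcripts that follow a growth hormone pulse most closely. Its log2 intensity was 9.78, 7.62, 10.33 and 8.79 in WT replicates 1 to 4, and 7.80, 10.13, 10.13 and 10.94 in NCOR_KO replicates 1 to 4. WT replicate 2 and NCOR_KO replicate 1 were the low arrays of their groups, and the groups overlapped over almost their whole range. The lowest and highest liver differed 6.52-fold among controls and 8.81-fold among knockouts. Only 3 of 22180 genes had a larger within-group SD than the 1.27 of Socs2. These were Saa2, an acute phase gene, the predicted gene Gm3893, and Onecut1, which encodes the liver factor HNF6. The group difference of 0.62 ± 0.69 (SE) had a limma adjusted p of 0.704 and a 95% interval from -0.90 to 2.14, so it holds changes of 1.5-fold in either direction. Without both low arrays it was 0.77 ± 0.36 (adjusted p = 0.392), without WT replicate 2 alone 0.12 and without NCOR_KO replicate 1 alone 1.27, the lowest and highest values over the single arrays left out. A second, dimmer Socs2 probe set differed by 0.54 ± 0.20 (adjusted p = 0.239 over all single-gene probe sets).

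Cish encodes the related inhibitor CISH. It read 7.28, 6.25, 7.29 and 7.40 in control and 6.30, 7.38, 7.08 and 7.30 in knockout liver. The same arrays, WT replicate 2 and NCOR_KO replicate 1, were lowest, and the other 6 lay within 7.08 to 7.40. Group means were 7.05 ± 0.54 and 7.01 ± 0.50 (SD, n = 4), and the difference of -0.04 ± 0.28 (SE; limma adjusted p = 0.961) became -0.07 ± 0.09 without both arrays (adjusted p = 0.796). The change in Socs2 minus Cish was 0.66 (exact permutation p = 0.257, adjusted p = 0.343).

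Bcl6 encodes a zinc finger repressor that, in liver, occupies many of the sites STAT5 binds and represses female-biased genes. It read 7.70, 8.76, 7.39 and 7.70 in control and 9.13, 7.39, 7.73 and 7.35 in knockout liver. Here WT replicate 2 and NCOR_KO replicate 1 were the high arrays, opposite to Socs2 and Cish. The range within a group was 2.59-fold in controls and 3.43-fold in knockouts, and 15 of 22180 genes had a larger within-group SD. The group difference of 0.01 ± 0.39 (SE) had a limma adjusted p of 0.990, and without both arrays it was -0.10 ± 0.12 (adjusted p = 0.768).

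Cux2, a homeobox factor gene that continuous growth hormone induces and that is female-biased in liver, was dimmer. It read 6.42, 6.24, 6.41 and 6.37 in control and 6.54, 6.46, 6.60 and 6.63 in knockout liver. Knockout values lay above control values throughout, by 0.20 ± 0.07 (SE; 95% interval 0.05 to 0.34), with a limma adjusted p of 0.172. The change in Bcl6 minus Cux2 was -0.18 (exact permutation p = 0.571, adjusted p = 0.571).

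Igf1 encodes the growth factor that the liver secretes under growth hormone. It was among the brightest genes, with 98.4% of genes lower, and read 11.60, 11.61, 11.69 and 11.71 in control and 11.47, 11.62, 11.67 and 11.63 in knockout liver. The groups overlapped, and NCOR_KO replicate 1 was the lowest array. The difference was -0.05 ± 0.06 (SE; limma adjusted p = 0.732), and its 95% interval from -0.19 to 0.09 holds no change as large as 1.5-fold.

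Igfals, whose product keeps IGF1 in the circulation, read 7.92, 7.44, 8.09 and 7.88 in control and 7.03, 7.29, 7.66 and 7.68 in knockout liver. WT replicate 2 and NCOR_KO replicate 1 were again the lowest of their groups, and WT replicate 2 alone made the groups overlap. The difference was -0.42 ± 0.17 (SE; 95% interval -0.78 to -0.05), or 1.34-fold, with a limma adjusted p of 0.252, and without both arrays -0.42 ± 0.11 (adjusted p = 0.145). The change in Igf1 minus Igfals was 0.37 (exact permutation p = 0.114, adjusted p = 0.229). By the same limit of the test, a different change of these partners was neither shown nor excluded.

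Socs2, Cish, Bcl6, Igf1 and Igfals were then compared between livers of the same group, after subtracting each group's mean. Over 8 arrays Socs2 and Bcl6 ran in opposite directions, with a Pearson r of -0.95 (permutation within groups over all arrangements, p = 0.00521, or 0.0260 adjusted over 10 pairs; Spearman rho = -0.79, permutation p = 0.0226, adjusted p = 0.0926). Socs2 and Igfals ran together (r = 0.91, permutation p = 0.00347, adjusted p = 0.0260; rho = 0.83, p = 0.0226, adjusted p = 0.0926). Cish and Bcl6 ran in opposite directions (r = -0.96, permutation p = 0.0122, adjusted p = 0.0405; rho = -0.86, p = 0.0278, adjusted p = 0.0926). The other 7 pairs had adjusted permutation p-values from 0.0608 to 0.101, among them Socs2 with Cish (r = 0.86, rho = 0.50). No pair passed on ranks.

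These relations were weaker without the 2 arrays farthest from the median, WT replicate 2 and NCOR_KO replicate 1. Over the other 6 arrays r was -0.65 for Socs2 with Bcl6 (permutation p = 0.194 over 36 arrangements), 0.59 for Socs2 with Igfals (permutation p = 0.167) and -0.53 for Cish with Bcl6 (permutation p = 0.417). Spearman rho over these 6 arrays was -0.71, 0.66 and -0.49 for the same pairs. For Socs2 with Cish r was -0.19 (permutation p = 0.778). With 6 arrays and 36 arrangements this check cannot settle whether a relation holds beyond those 2 arrays. The calls also changed when single arrays were left out, though r stayed from -0.98 to -0.89, 0.85 to 0.97 and -0.97 to -0.95. Fewer arrangements remain then, and the lowest adjusted permutation p of each of these pairs was 0.0463. A lost call therefore cannot show that a relation rests on a single array. Socs2 with Bcl6 and Socs2 with Igfals passed in 3 of 8 cases, without WT replicate 4, NCOR_KO replicate 2 or NCOR_KO replicate 3, and not without any of the other 5 arrays (adjusted permutation p up to 0.139 for each pair). Cish with Bcl6 passed in 1 of 8 cases, without WT replicate 4 (adjusted permutation p up to 0.162 otherwise).

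**Figure D3:**
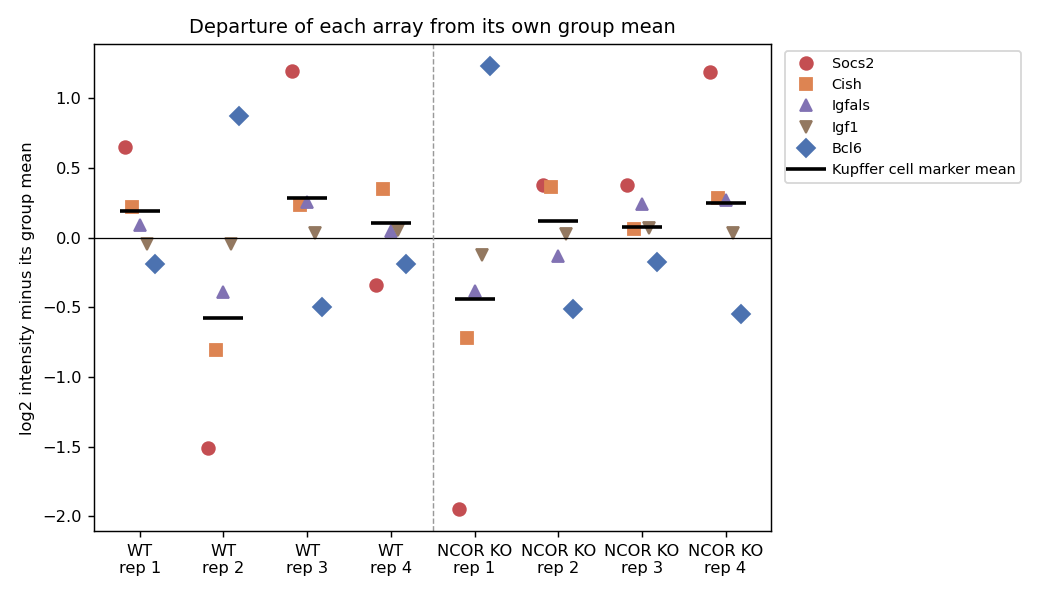
Log2 intensity minus the mean of the array's own group (y axis) for Socs2, Cish, Igfals, Igf1 and Bcl6 on each of the 8 arrays (x axis), with black bars for the mean of 11 Kupffer cell markers. On WT replicate 2 and NCOR KO replicate 1 Socs2 lies at -1.51 and -1.95, Bcl6 at 0.87 and 1.23, and the Kupffer marker mean at -0.58 and -0.44.

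Onecut1, a growth hormone responsive factor singled out after its values were seen, had the same low arrays. It read 10.30, 7.81, 9.85 and 10.27 in control and 7.27, 10.31, 9.43 and 9.97 in knockout liver, a group difference of -0.31 ± 0.69 (SE; limma adjusted p = 0.864). Kupffer cell markers, which belong to the resident macrophages of the liver, moved with these arrays too. Of 11 measured Kupffer and macrophage markers 11 were lowest of their group in WT replicate 2 and 11 in NCOR_KO replicate 1. Their summed intensity was 5212.0, 2989.8, 5743 and 4738 in WT replicates 1 to 4 and 3563, 5552, 5377 and 6229 in NCOR_KO replicates 1 to 4. Endothelial markers were lowest of their group in WT replicate 2 in 9 of 10 cases and in NCOR_KO replicate 1 in 8 of 10. Hepatocyte markers were lowest there in 1 and 4 of 12 cases. The share of all genes lowest on these arrays was not counted, and both departed more from their group means over all genes than any other array. Fewer cells of a type and less RNA per cell cannot be told apart in whole liver, and the part of these markers in the pattern was not tested.

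The genes most like Socs2 between livers of a group, among genes at or above the median level, were Clec4f, a Kupffer cell lectin gene (r = 0.99), the folate receptor gene Folr2 (0.99) and the toll-like receptor gene Tlr13 (0.99), each over 8 group-centred arrays. Folr2 read 8.89, 7.96, 9.06 and 8.52 in control and 8.11, 8.95, 8.93 and 9.14 in knockout liver, so WT replicate 2 and NCOR_KO replicate 1 were low again. In all, 253 of 11089 such genes had an r above 0.9 with Socs2 and 102 an r below -0.9. Those closest to Igf1 were Fgd4, the galectin gene Lgals8 and Nsmce1 (r = 0.98 for each), with 67 genes above 0.9 and 83 below -0.9. Genes on the same arrays share their libraries, so these counts describe the arrays and carry no test.

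Promoter sequence was read for the axis genes because Socs2, Cish, Bcl6 and Igfals moved with the same arrays. STAT5 binds the palindrome TTCNNNGAA, which is its own reverse complement, and the BCL6 site overlaps it. RefSeq promoter windows on GRCm38.p6, 250 bases before to 50 after a start site, were matched for 9 of the 10 genes, 16 windows in all; Socs2 had no entry. The palindrome was present in 5 of the 16 windows, which belong to Cish, Bcl6 and Igfals, against 8.3% of 32851 windows of all genes. Counted by gene this was 3 of 9, against 9.55% of 27025 genes. The windows of Ghr, Jak2, Stat5a, Stat5b, Cux2 and Igf1 did not hold these letters, which says nothing on sites elsewhere. The 3 stretches below are shown because they hold the palindromes nearest to a start site in the genes whose levels moved together or apart; capitals mark the palindrome. The Cish stretch is chr9:107296629-107296688 on the plus strand, with palindromes beginning at bases 1 and 12 of the transcript. The Bcl6 stretch is chr16:23981333-23981481 on the minus strand, with palindromes beginning 168, 122 and 88 bases before the more downstream of its listed starts. The Igfals stretch is chr17:24878143-24878211 on the plus strand, with its palindrome beginning 58 bases before a start.
Cish: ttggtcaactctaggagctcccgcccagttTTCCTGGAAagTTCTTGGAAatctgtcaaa
Bcl6: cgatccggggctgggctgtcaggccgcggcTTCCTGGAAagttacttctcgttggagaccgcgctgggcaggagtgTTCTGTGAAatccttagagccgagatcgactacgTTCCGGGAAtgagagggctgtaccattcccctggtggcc
Igfals: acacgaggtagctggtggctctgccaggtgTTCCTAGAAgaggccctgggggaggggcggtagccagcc
The first Bcl6 palindrome and the first of Cish share the letters TTCCTGGAA. Windows with 2 or more palindromes made up 0.457% of all windows. These matches are descriptions of sequence, and no binding was measured.

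The IGF binding proteins and the proteins that act on them were measured for 10 of 10 genes, of which 2 rose, 0 fell and 8 did not pass, where 0.816% of all genes rose. Their median difference was 0.11. Igfbp1, a hepatocyte-made binding protein that insulin represses, read 10.86, 11.17, 10.9995 and 10.64 in control and 11.59, 11.43, 11.73 and 11.64 in knockout liver. It rose by 0.68 ± 0.11 (SE; limma adjusted p = 0.0146) and passed in 15 of 16 alternative fits, the exception being the replicate block (adjusted p = 0.0556). Pappa2, a protease that frees IGF1 from binding proteins, rose by 0.50 ± 0.11 (SE; adjusted p = 0.0495), from 3.74 ± 0.09 to 4.23 ± 0.23 (SD, n = 4). It was dim, below the median gene level of 5.88, and passed in 5 of 15 alternative fits. Its adjusted p reached 0.113 without WT replicate 3 and was over the threshold without any array other than NCOR_KO replicate 2.

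Igfbp4 had the opposite sign, at 12.05, 12.06, 12.02 and 12.08 in control and 11.82, 11.86, 11.90 and 11.86 in knockout liver. Its groups did not overlap, and the difference of -0.19 ± 0.05 (SE) had a limma adjusted p of 0.1003. Igfbp3, the main carrier of circulating IGF1, and Igfbp2 stood at 0.30 (adjusted p = 0.328) and 0.23 (adjusted p = 0.432), with overlapping groups. The list of IGF ligands and receptors also held the insulin receptor gene Insr and the prolactin receptor gene Prlr. All but Prlr were measured, 4 of 5, and 0 passed in limma, also at an unadjusted p under 0.05. Insr was at -0.05 (adjusted p = 0.734), Igf1r at 0.03 (adjusted p = 0.893) and Igf2r at -0.06 (adjusted p = 0.796).

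**Figure D4:**
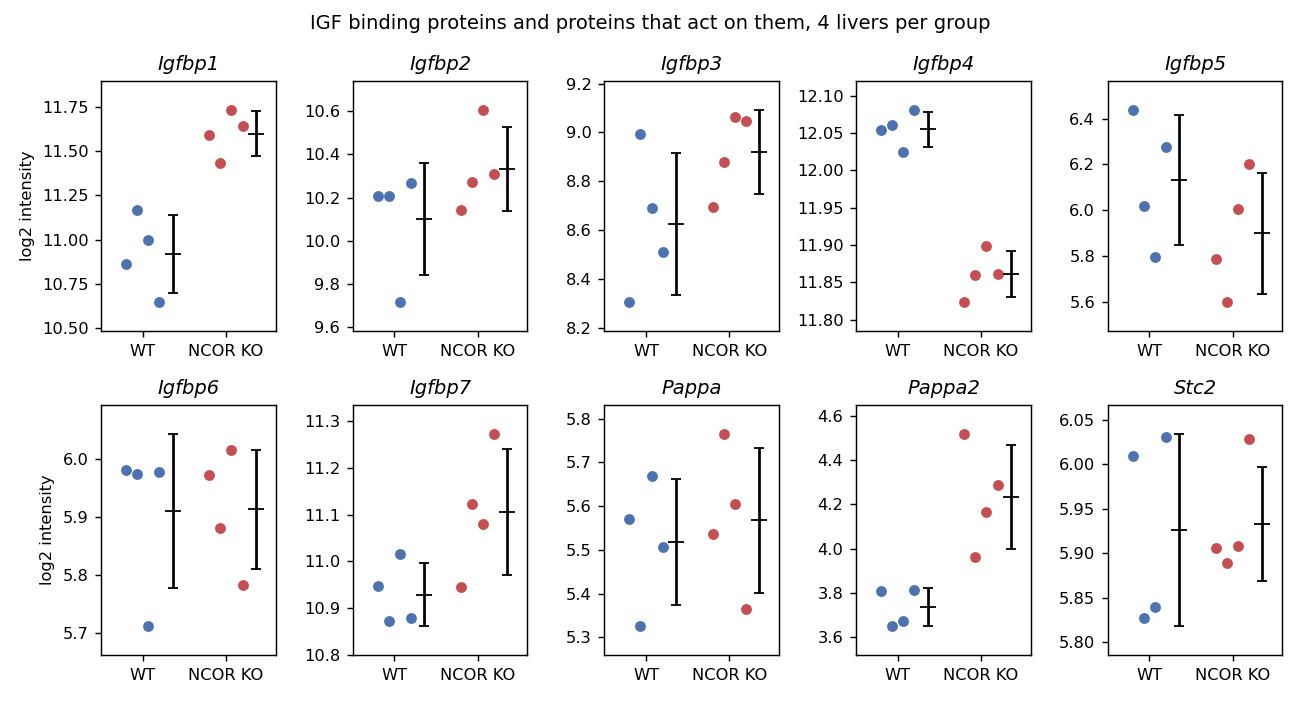
Log2 intensity (y axis) of 7 IGF binding proteins, the proteases Pappa and Pappa2 and their inhibitor Stc2 in WT (blue) and NCOR KO (red) liver, with bars for the group mean ± SD (n = 4). Igfbp1 and Pappa2 are higher and Igfbp4 lower in every knockout array than in any control array.

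Among the other JAK and STAT genes 6 of 8 were measured and 0 passed, with a median of -0.08. Stat2, a mediator of interferon signals, had the largest difference, -0.30 ± 0.08 (SE; limma adjusted p = 0.0838), and its groups did not overlap. In the list of other SOCS genes, phosphatases and adaptors 15 of 15 were measured, 0 passed and the median was -0.04. Socs7 lay furthest from 0, at -0.26 ± 0.07 (adjusted p = 0.112), and Socs3, the inhibitor induced by interleukin-6, was at -0.03 (adjusted p = 0.943). Liver factors tied to growth hormone responses were measured in 8 of 9 cases with 0 past the threshold. Foxa1, a pioneer factor gene, was at -0.33 ± 0.14 (adjusted p = 0.295). Unadjusted p-values under 0.05 were found for 2 of 6 genes of the first list, 1 of 15 of the second and 2 of 8 of the third, against 15.9% of all genes.

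Genes whose liver expression depends on the sex-specific growth hormone pattern were taken as 2 lists, partly made of genes with known changes in these data, so their direction is not independent evidence. Of 20 measured male-biased genes 1 rose, 3 fell and 16 did not pass, where 0.816% of all genes rose and 0.834% fell. Below 0 lay 16 of the 20, where 48% of all genes did, and the median was -0.31, from -0.35 to -0.26 over the alternative fits. Selenbp2, a selenium binding protein gene, read 11.60, 11.42, 11.42 and 11.90 in control and 9.54, 10.24, 9.98 and 9.71 in knockout liver. It fell by 1.72 ± 0.15 (SE; limma adjusted p = 5.92e-04), a call kept in all 16 alternative fits. Cyp7b1, an oxysterol hydroxylase gene, fell by 0.84 (adjusted p = 0.0449) and Gstp1, a glutathione transferase gene, fell by 0.35 (adjusted p = 0.0359). Elovl3, a fatty acid elongase gene, rose by 0.72 (adjusted p = 0.0359), against the sign of the list. Of the 16 alternative fits Cyp7b1 passed in 5, Gstp1 in 8 and Elovl3 in 10.

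Hsd3b5, a male-specific steroid dehydrogenase gene, had the second largest difference of that list. It read 10.998, 10.11, 10.44 and 10.51 in control and 7.73, 8.52, 9.74 and 9.46 in knockout liver. NCOR_KO replicate 1 was the lowest array, and the difference of -1.65 ± 0.38 (SE) had a limma adjusted p of 0.0624. The major urinary protein gene Mup3, near the top of the intensity range, was at -0.06 (adjusted p = 0.630). Male-biased counts changed with the arrays used, since 1 of 20 passed without WT replicate 1, without WT replicate 4 or without NCOR_KO replicate 2, and 2 without NCOR_KO replicates 1, 3 or 4.

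Of 22 measured female-biased genes 4 rose, 0 fell and 18 did not pass, against 0.816% of all genes that rose. Above 0 lay 20 of the 22, where 52% of all genes did, and the median was 0.46, from 0.27 to 0.63 over the alternative fits. Cyp3a44, a female-biased cytochrome P450 gene, read 6.90, 6.995, 6.86 and 6.75 in control and 7.68, 7.70, 7.50 and 7.48 in knockout liver. It rose by 0.71 ± 0.08 (SE; limma adjusted p = 0.00200) and passed in all 16 alternative fits. The steroid hydroxylase gene Cyp17a1 rose by 1.97 (adjusted p = 3.99e-05), the fatty acid translocase gene Cd36 by 1.30 (adjusted p = 0.00903) and Cyp2a4 by 0.74 (adjusted p = 0.0355). Of the 16 alternative fits Cyp17a1 passed in 16, Cd36 in 15 and Cyp2a4 in 8. Hamp2, a hepcidin gene, was at 1.16 (adjusted p = 0.0567) and Cyp2b9 at 2.10 (adjusted p = 0.0772). The strictly female-specific Cyp2b13 and Sult3a1 stayed dim in both groups, at 3.80 and 3.17 in control and 3.99 and 3.21 in knockout liver. Near-identical Cyp paralogs can share signal, so single members are uncertain.

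**Figure D5:**
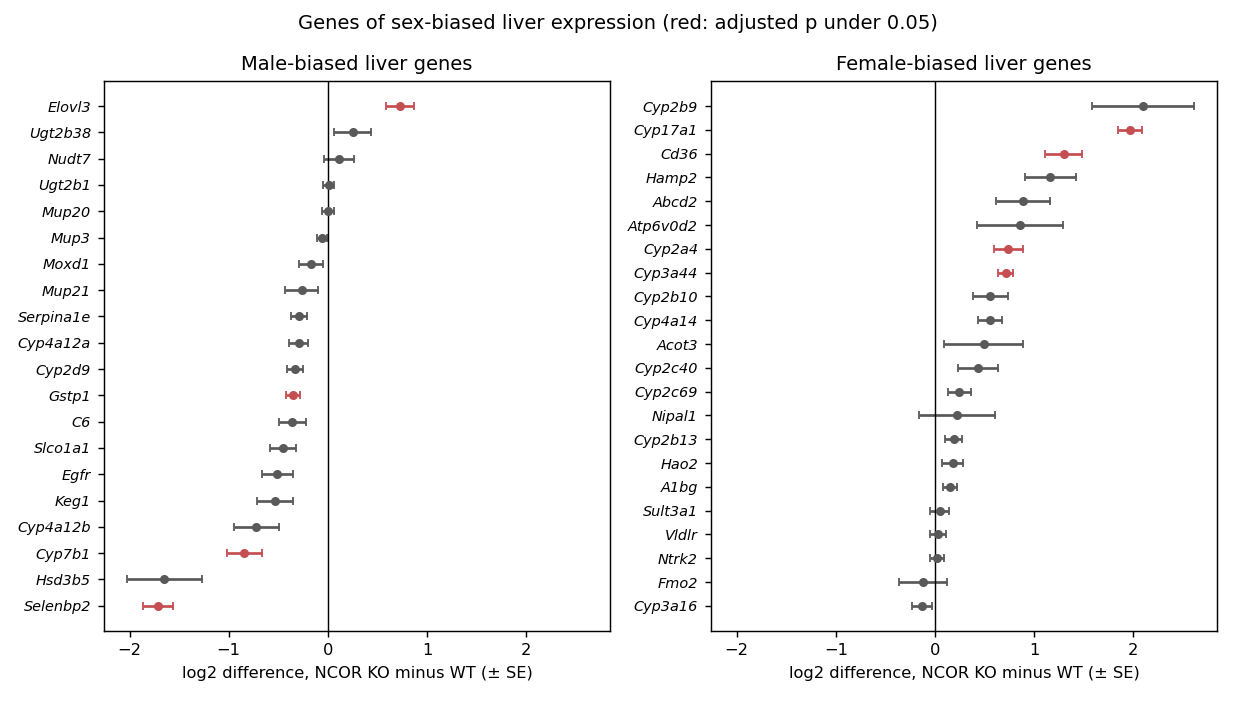
Difference in log2 intensity, NCOR KO minus WT ± SE (x axis), of 20 male-biased and 22 female-biased liver genes (y axis) over 4 arrays per group, with red for an adjusted p under 0.05. Most male-biased genes lie left of 0 and most female-biased genes right of it, while Elovl3 and Selenbp2 mark the ends of the male-biased list.

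The mean log2 level of the female-biased list was 6.95, 7.13, 7.57 and 7.02 in control liver, against 7.67, 7.63, 7.70 and 7.96 in the knockouts. WT replicate 3 came close to the knockout arrays. That of the male-biased list was 11.05, 10.86, 10.80 and 10.87 in control and 10.36, 10.60, 10.65 and 10.48 in knockout liver, with no overlap. WT replicate 2 and NCOR_KO replicate 1, the low arrays for Socs2, were not the extreme arrays of the female-biased list. NCOR_KO replicate 1 was the lowest array of the male-biased list, with 9 of 20 genes lowest of their group there. The share of all genes lowest on that array was not counted. Without both of them 3 female-biased genes rose, and of the male-biased genes 1 rose and 2 fell.

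Markers of other cells are given beside these lists, where 0.816% of all genes rose and 52% lay above 0. Endothelial markers were above 0 in 10 of 10 cases and 0 passed in limma (Cdh5, furthest from 0, at 0.30, adjusted p = 0.108), with summed intensities from 6971 to 8501 in control and 8258 to 9742 in knockout liver. Of 6 cholangiocyte markers 1 rose (Epcam, 0.41, limma adjusted p = 0.0452), with sums from 335 to 356 and from 388 to 457. Of 9 lymphocyte markers 2 rose (Cd3e, 0.47, adjusted p = 0.0373, and Cd79a, 0.41, adjusted p = 0.0173), with sums from 348 to 380 and from 394 to 458. Many of these markers were dim, as 1 of 9 lymphocyte and 3 of 6 cholangiocyte markers lay at or above the median gene level. Cd3e and Cd79a lay below it by their mean over all arrays. Epcam passed in 4 of 16 alternative fits, Cd3e in 6 of 15 and Cd79a in 11 of 15. Of 11 Kupffer and macrophage markers 0 passed in limma and 9 lay above 0, with a median of 0.12. That median was -0.05 without WT replicate 2, 0.26 without NCOR_KO replicate 1 and 0.07 without both. Vsig4 lay furthest from 0, at 0.33 (adjusted p = 0.588). Hepatocyte markers had 0 of 12 past the threshold in limma, 6 above and 6 below 0 and a median of -0.00044, with Ass1 furthest from 0 at -0.23 (adjusted p = 0.512). Stellate cell markers had 0 of 10 past it, with Lrat furthest from 0 at -0.36 (adjusted p = 0.388). The 1 measured erythroid marker, Slc4a1, was at -0.03 (adjusted p = 0.894). The part of these cells in the results was not tested. In the acute phase list 1 of 16 fell, where 0.834% of all genes fell. This was Saa4 (-0.37, adjusted p = 0.0404), a call kept in 7 of 16 alternative fits, and WT replicate 1 stood apart with a mean log2 level of 11.82 where the other arrays had 10.73 to 11.07.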

How the data were processed

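Per the labels, total RNA extracted with Trizol from 8 livers was biotin-labelled and hybridised to single-colour arrays, 4 WT and 4 NCOR_KO. Each deposited value is the linear intensity of a probe set, ranging from 5.42 to 13268. RMA and Partek are named, with no role or version, per the submitters' processing notes; background settings, filters and genome build are not given in the sources used here. Median intensity per array, 41.0 to 44.1, stands for depth. Log2 was taken and nothing else was normalised.

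The table held 41345 probe sets, of which 25335 carried a gene and 23521 a single one. For the 1082 genes with several, the probe set with the highest mean over 8 arrays was kept, giving 22180 genes, with no filter on dim ones.

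The contrast was fitted in R 4.3.3 using limma 3.58.1 (lmFit, eBayes; Benjamini-Hochberg over all genes; threshold 0.05). Differences are NCOR_KO minus WT, errors are standard errors of the fit. Exact permutation tests used 70 assignments, whose smallest two-sided p of 0.0286 is for a single test. After adjustment a single difference at that p cannot pass the threshold alone. Covariation tests used all arrangements within groups. The fit was tested on data simulated from each gene's mean and spread, with 50 changes planted at each size. It called 18% of them at 1.2-fold, 74% at 1.5-fold and 96% at 2-fold. Most changes near 1.2-fold would thus be missed, so a gene that did not pass is not shown to be unchanged. These rates are for changes planted in genes drawn at random, with noise independent between genes. They do not carry over to Socs2, Bcl6 and Cish, whose within-group SDs were larger than those of at least 99.7% of genes.

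Members and lists were chosen with earlier results of these data known. All 10 axis genes were named, and of each other list up to 4 genes past the threshold with the largest change, or the 1 with the largest change where none passed; the 3 genes most like Socs2 and Igf1 were those with the highest Pearson r. Further genes, such as Onecut1, Hsd3b5, Igfbp4, Mup3 and Socs3, were picked with their values in view. The alternatives tried were a replicate block, quantile normalization, array-median centring, eBayes with trend and robust settings, array weights, dropping genes below the median level, averaging the probe sets of a gene, thresholds of 0.01 and 0.1, and each array left out. A fit lacking both WT replicate 2 and NCOR_KO replicate 1 was chosen after seeing the data. Promoter windows came from RefSeq tables, and figures were drawn with matplotlib 3.10.9.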

Additional observations from a re-analysis of the deposited data

Results flagged for a closer look

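In 20 groups of 4 arrays, 2 for each of the 10 axis genes, 2 single arrays stood off from the rest of their group by a gap of more than 0.829 of the group's range. Chance gives such a gap in about 1 of 20 groups. Cish in WT replicate 2, at 6.25, lay below the next control value of 7.28, a gap of 0.892 of the range. Stat5a in NCOR_KO replicate 3, at 7.76, lay below the next knockout value of 7.92, a gap of 0.836 of the range.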

How the results depend on the processing

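The axis count of 1 became 2, with Ghr beside Stat5a, under centring on the array median, a trend and robust variance, array weights, the filter at the median level and a threshold of 0.1. Ghr was then at -0.28, -0.24, -0.25 and -0.24 in the first 4. The count was 0 at a threshold of 0.01, and ran from 0 to 1 without single arrays. Replicate numbers are not said to mark a shared litter or batch. Same-numbered deviations correlated at -0.0935 to 0.0167, which cannot show whether such arrays were paired. The replicate block left 0 of 10 axis genes, 155 of 22180 genes and 6 genes of the other pathway lists in place of 10. Stat5a was then at 0.47 (limma adjusted p = 0.0668). Stat5a stayed between 0.42 and 0.52 without single arrays. Genes past the threshold numbered 551 of the 11090 at or above the median level. Of 22180 genes 202 passed without WT replicate 2 and NCOR_KO replicate 1 together. Without single arrays 120 to 297 of 22180 passed, where the other pathway lists had 5 to 9. Without single arrays Socs2 ran from 0.12 to 1.27. Differences near 0 changed sign, as Cish ran from -0.31 to 0.20, Bcl6 from -0.40 to 0.31 and Bcl6 minus Cux2 from -0.60 to 0.15. Bcl6 was at -0.022 with centring and at -0.10 without both arrays. Igf2r ran from -0.13 to 0.0044, Slc4a1 from -0.083 to 0.022, Onecut1 from -0.90 to 0.34, Igf1r from -0.019 to 0.068, Clec4f from -0.014 to 0.23 and Folr2 from -0.045 to 0.39, and Igf1r was at -0.0084 with centring and -0.0036 without both arrays. Cish with Bcl6 had r = -0.96 (adjusted p = 0.0608) with the mean of probe sets. Without single arrays r ran from -0.97 to -0.95 for that pair, from -0.98 to -0.89 for Socs2 with Bcl6, from 0.85 to 0.97 for Socs2 with Igfals and from -0.99 to -0.75 for Bcl6 with Igfals. With a single array left out, and so fewer arrangements, the first 3 pairs passed in 1, 3 and 3 of 8 cases. Bcl6 with Igfals, not past the threshold on all arrays, passed in 2 of 8. An exact sign-flip permutation over same-numbered pairs cannot go below p = 0.125 and say nothing on the within-array differences. The cause of these changes was not tested. Signal over background cannot be read from these files.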
